A study of Mus musculus with 4 samples.

Results

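Regulators of G protein signalling (RGS proteins) were followed through the cells of mouse popliteal vessels. The genes were 7 chosen by name (Rgs1, Rgs2, Rgs3, Rgs4, Rgs5, Rgs10 and Rgs16) out of 32286 features in the deposited tables, of which 21 carry an RGS symbol with a number. All 7 were measured in single cells from adult mice carrying both WT1GFPCre (Wt1tm1(EGFP/cre)Wtp/J), a Cre recombinase placed in the Wt1 gene, and Ai9, a tdTomato reporter at the ROSA26 locus that is switched on by Cre (allele Gt(ROSA)26Sortm9(CAG-tdTomato)Hze). Every mouse was given K/X anaesthesia and Evans blue dye in the footpad, and the vessels were dissected by surgery. The PLV group was 2 libraries of popliteal lymphatic vessels, each from its own pool of 2 mice, digested for 30 minutes in 1 mg/ml collagenase I and 1 mg/ml Dispase II with DNase and Liberase. The mixed library came from 1 further pool of 2 mice and held cells of popliteal lymphatic vessels and of blood vessels (BV), each hashed with its own antibody, digested for 60 minutes in the same collagenase and Dispase but without DNase or Liberase. No group without the transgenes was part of the comparisons.

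G protein coupled receptors switch on the alpha subunit of a G protein by loading it with GTP. RGS proteins bind that loaded subunit and speed its return to the resting state, so they shorten signals from receptors for endothelin, angiotensin, noradrenaline, chemokines and many other ligands. In vessel walls they are known for limiting Gq and Gi signals that contract muscle and pericytes, and in leukocytes for limiting chemokine receptors. The genes described fall by their best known settings into those of mural cells, meaning pericytes and smooth muscle (Rgs4, Rgs5 and Rgs2), those induced in stimulated endothelial and mural cells (Rgs16 and Rgs3), and those of leukocytes and platelets (Rgs1 and Rgs10).

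In build GRCm38, which the submitters' processing notes name, 5 of the 7 genes lie on chromosome 1 (GENCODE annotation, all protein coding). Rgs5 is at chr1:169655501-169695813 on the plus strand and Rgs4 at chr1:169741477-169747642 on the minus strand. The ends of both genes face each other across 45663 bases in which the annotation places 0 genes. Rgs2 is at chr1:143999338-144004161 and Rgs1 at chr1:144242296-144249242, both on the minus strand, with 1 coding gene, Rgs13, between them. Rgs16 is at chr1:153740349-153745468 on the plus strand. Rgs3 is at chr4:62559847-62704001 on the plus strand and Rgs10 at chr7:128373621-128418758 on the minus strand. Genes annotated over the same bases held few UMIs in kept cells, at 0 for Gm11209 over Rgs3, 10 for Gm15503 over Rgs10 and 1 for Gm28513 over Rgs16.

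The 250 bases before the start of Rgs5 and of Rgs4 are shown because these neighbours are the genes with which the levels of pericytes and muscle begin. The sequences are from RefSeq (GRCm38.p6), at chr1:169655251-169655500 on the plus strand for Rgs5 and chr1:169747643-169747892 on the minus strand for Rgs4. Capitals mark the letters CCAAT, read on either strand.
Rgs5: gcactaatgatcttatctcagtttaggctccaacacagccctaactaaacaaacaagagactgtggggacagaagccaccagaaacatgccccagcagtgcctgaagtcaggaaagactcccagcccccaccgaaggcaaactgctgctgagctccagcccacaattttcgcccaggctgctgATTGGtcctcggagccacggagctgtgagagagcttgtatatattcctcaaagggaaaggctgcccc
Rgs4: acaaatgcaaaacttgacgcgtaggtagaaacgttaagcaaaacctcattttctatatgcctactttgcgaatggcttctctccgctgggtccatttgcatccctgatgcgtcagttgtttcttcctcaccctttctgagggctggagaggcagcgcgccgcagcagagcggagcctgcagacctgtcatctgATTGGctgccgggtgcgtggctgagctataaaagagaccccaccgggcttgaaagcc

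Each window held 1 match to CCAAT, at position -67 before the Rgs5 start and position -57 before the Rgs4 start. CCAAT on either strand was found in 33.8% of 32851 mouse promoter windows of the same length, so a match is common. The Rgs4 window also held TATAAA, found in 12.4% of all windows, and the Rgs5 window did not. A sequence was matched for 6 of the 7 genes. Matches are descriptions of the letters in these windows.

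After filtering, the libraries held 1909, 516 and 994 cells and 9577642, 3390010 and 7770796 UMIs (PLV replicate 1, PLV replicate 2 and mixed, an order kept throughout), and 0 cell barcodes were shared between them. A UMI is 1 tagged RNA molecule, and CPM is the usual count of a gene's UMIs divided by all UMIs of the cells named and scaled to a common total. Classes were named from marker genes that did not include the 7 RGS genes, which were also left out of the clustering. Pericyte-like cells numbered 54, 27 and 41, muscle-like cells 422, 110 and 319, blood endothelial-like cells 296, 59 and 174, lymphatic endothelial-like cells 192, 69 and 53, and immune-like cells 212, 37 and 37. Pericyte-like cells had UMIs of all 13 listed pericyte markers in every library, but so did some clusters of blood endothelial-like and muscle-like cells. These markers summed to 5013, 5110 and 3538 CPM in pericyte-like cells. They summed to 1964, 1750 and 1244 CPM in muscle-like and 831, 495 and 691 CPM in blood endothelial-like cells. Muscle markers summed to 10751, 9859 and 10530 CPM in pericyte-like and 43009, 42572.5 and 51946 CPM in muscle-like cells. The hashtags did not separate the vessels in the mixed library: the tag CMO1 made a median of 79.7% of tag UMIs in kept cells and 79.8% in near-empty droplets. In muscle, clusters with more Ano1 and Hmcn2 than the other muscle (137, 57 and 188 cells) were set apart from clusters with more Pln and Sorbs2 (285, 53 and 57 cells), and the mixed library also held a cluster of 74 muscle-like cells led by P2rx1 and Col12a1. In PLV replicate 1 a cluster of 64 cells with muscle and pericyte markers together, at a median of 1470 UMIs per cell, was kept apart from both classes.

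Summed over kept cells, Rgs5 had 8983 UMIs, Rgs16 2041, Rgs2 2016, Rgs4 1988, Rgs3 1079, Rgs10 397 and Rgs1 179. Each gene had its own order of classes, as the plot of levels by class shows. Rgs5 was highest in pericyte-like cells in all 3 libraries. Among the 7 classes plotted, Rgs1, Rgs2 and Rgs10 were highest in immune-like cells in all 3 (unnamed cells of PLV replicate 1, not plotted, had 1047 CPM of Rgs10), though Rgs2 in the mixed library (252 CPM, interval 186 to 333) did not differ from muscle-like cells (239 CPM, interval 220 to 259) beyond counting error. Rgs3 was highest of these classes in lymphatic endothelial-like cells, followed in each library by blood endothelial-like cells. The unnamed cells of PLV replicate 2 had 106 CPM of Rgs3 from 9 UMIs (interval 48.3 to 200.4), against 62.1 CPM in its blood endothelial-like cells.

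**Figure D1:**
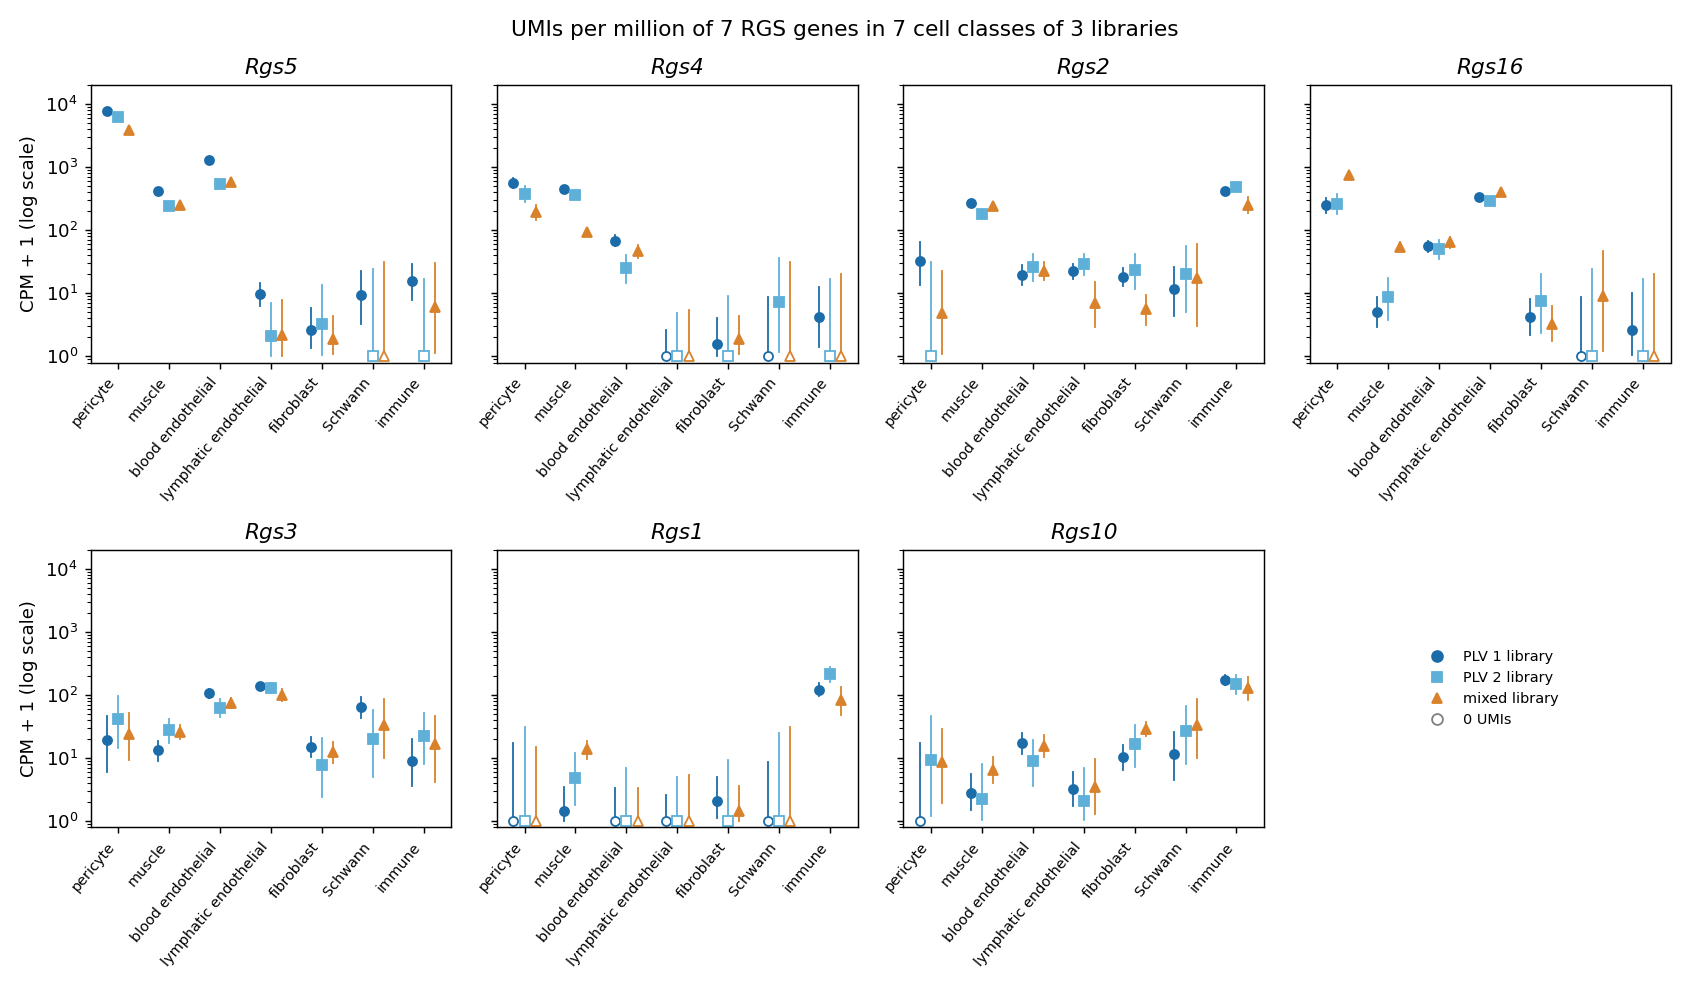
Level of each RGS gene (CPM plus 1, log axis) in 7 cell classes, with 1 point per library and bars for the 95% exact Poisson interval, which covers counting error only; open points mark classes with 0 UMIs. Rgs5 in pericyte-like cells lies between 3834 and 7752 CPM, and Rgs1 is at 0 in pericyte-like and both endothelial classes of every library.

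Rgs5, a brake on Gi and Gq signals long used as a pericyte marker, separated pericytes from muscle. Its level in pericyte-like cells was 7752, 6156 and 3834 CPM. In muscle-like cells it was 411, 237 and 252 CPM. The groups did not overlap, and muscle lay far under pericytes in each library. The edgeR log2 fold change of pericyte-like over muscle-like cells was 4.06 (SE 0.261, adjusted p = 4.12e-10, n = 3 libraries, higher in 3 of 3). With the cells thinned to 1500 UMIs each, which left 44, 23 and 39 pericyte-like cells, 95.5%, 100% and 97.4% of them had an Rgs5 UMI (94.4%, 96.3% and 97.6% unthinned, at median depths of 2903, 4617 and 6223 UMIs). Fibroblast-like cells, the reference for free RNA, had an Rgs5 UMI in 0.777%, 1.15% and 0.347% of cells at median depths of 4057, 4225 and 6816 UMIs. The PLV replicate 1 cluster with both marker sets had 3994 CPM, between its pericyte-like and its muscle-like cells.

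Rgs4, a small RGS protein that acts on Gi and Gq, split the muscle. In Pln and Sorbs2 clusters it was at 667, 607 and 325 CPM. In Ano1 and Hmcn2 clusters of the same libraries it was at 9.79, 15.5 and 3.88 CPM. The ranges stood far apart, with every Pln and Sorbs2 value above every Ano1 and Hmcn2 value. The log2 fold change of Ano1 and Hmcn2 over Pln and Sorbs2 clusters was -6.09 (SE 0.245, adjusted p = 3.26e-13, edgeR, n = 3 libraries, lower in 3 of 3). An Rgs4 UMI was found in 81.8%, 94.3% and 75.4% of Pln and Sorbs2 cells against 5.11%, 7.02% and 1.60% of Ano1 and Hmcn2 cells (54.5%, 60.4% and 35.7% against 1.5%, 2.04% and 0% after thinning, where the mixed value is 0 of 181 cells, with an exact binomial upper limit of 2.02%). Fibroblast-like cells had one in 0.259%, 0% and 0.694% of cells. The P2rx1 and Col12a1 cluster of the mixed library lay between the kinds at 113 CPM (interval 90.8 to 138), with an Rgs4 UMI in 40 of 74 cells (54.1%, and 17.6% after thinning). Near-empty droplets of that library had 32.0 CPM (interval 21.9 to 45.1).

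Pericyte-like cells had Rgs4 at 559, 376 and 192 CPM. Against all muscle-like cells (453, 364 and 91.2 CPM) the log2 fold change was 0.17 (SE 0.315, adjusted p = 0.833), a difference within the spread. Against Ano1 and Hmcn2 clusters it was 5.38 (SE 0.303, adjusted p = 1.44e-33), and against Pln and Sorbs2 clusters it was -0.68 (SE 0.187, adjusted p = 0.0125, lower in 3 of 3 libraries). That last call was lost without PLV replicate 1 (-0.84, adjusted p = 0.0616), without PLV replicate 2 (-0.63, adjusted p = 0.0690), with DESeq2 (adjusted p = 0.0625) and without the library block (adjusted p = 0.232). The comparisons within kinds were added after the data were seen. All 4 genes tested (Rgs2, Rgs4, Rgs5 and Rgs16) passed between pericyte-like cells and Ano1 and Hmcn2 clusters, where 25.4% of all genes did, and all 4 against Pln and Sorbs2 clusters, where 27.6% did.

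Nearly every pericyte-like cell had an Rgs5 UMI, so cells with both genes were in effect those with Rgs4. Both had a UMI in 24 of 54, 20 of 27 and 23 of 41 pericyte-like cells, and 27, 6 and 17 cells had Rgs5 without Rgs4. In Pln and Sorbs2 clusters 89 of 285, 24 of 53 and 17 of 57 cells had both, and 144, 26 and 26 had Rgs4 alone. In Ano1 and Hmcn2 clusters Rgs5 alone was found in 50 of 137, 18 of 57 and 97 of 188 cells, and both in 6, 2 and 1. These counts move with depth per cell, and detection in a cell is not a level.

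Rgs5 itself differed less between the kinds of muscle. It was at 365, 186 and 251 CPM in Ano1 and Hmcn2 clusters and at 432, 273 and 717 CPM in Pln and Sorbs2 clusters. Within each library the Pln and Sorbs2 value was the higher, though the ranges of the kinds overlap across libraries. The shares of cells with an Rgs5 UMI did not follow this order. They were 40.9%, 35.1% and 52.1% of Ano1 and Hmcn2 cells and 37.2%, 47.2% and 33.3% of Pln and Sorbs2 cells (27.8%, 10.2% and 22.7% against 25.4%, 26.4% and 25.0% after thinning). The 717 CPM of the mixed library came from 291 UMIs in 19 of 57 cells. The log2 fold change was -0.92 (SE 0.194, adjusted p = 0.000793), and -0.97 with adjusted p = 0.0651 without the library block. The P2rx1 and Col12a1 cluster had 26.6 CPM (interval 16.7 to 40.3), under every other muscle cluster and under the 106 CPM of near-empty droplets in that library.

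**Figure D2:**
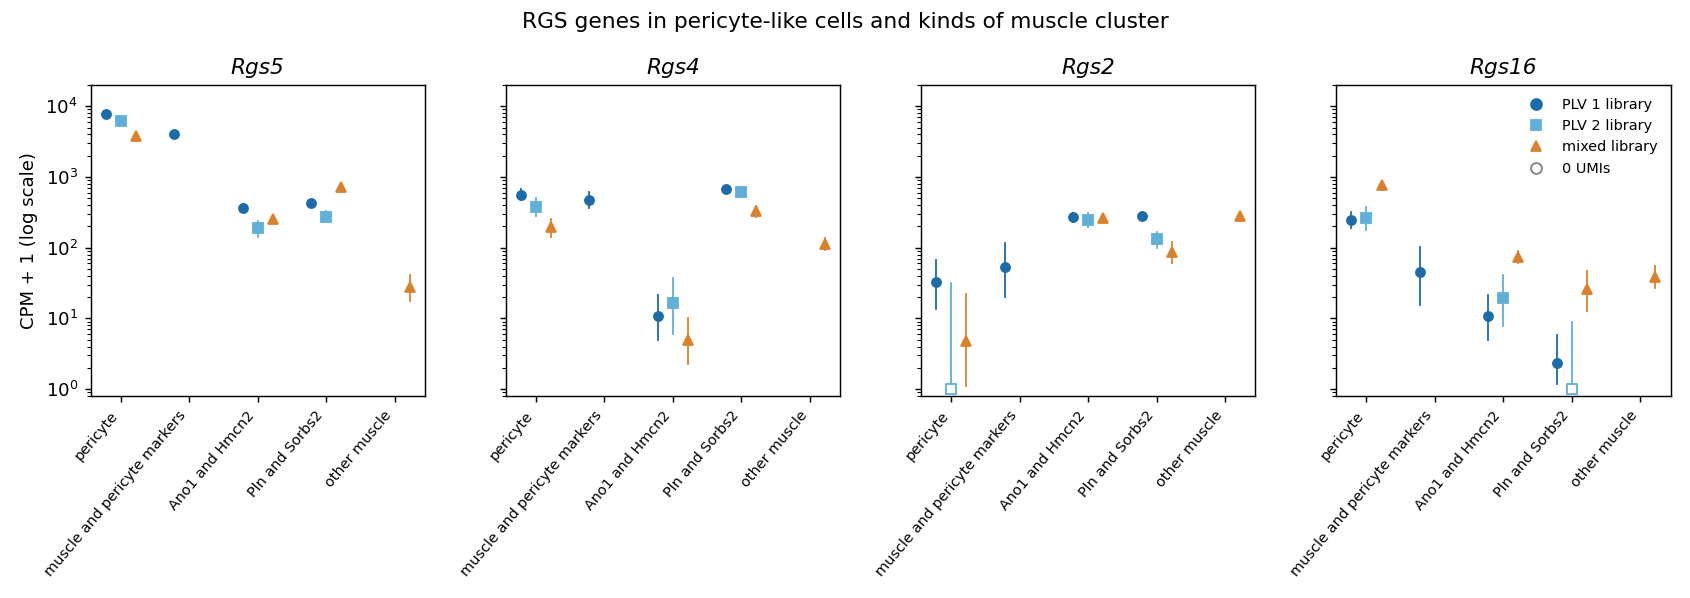
Level of 4 RGS genes (CPM plus 1, log axis) in pericyte-like cells, in the PLV replicate 1 cluster with both marker sets and in each kind of muscle cluster, with 1 point per library and 95% exact Poisson intervals. Rgs4 is at 325 to 667 CPM in Pln and Sorbs2 clusters and at 3.88 to 15.5 CPM in Ano1 and Hmcn2 clusters, while Rgs2 lies between 86.3 and 283 CPM in every muscle cluster and at 31.5 CPM or below in pericyte-like cells.

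Rgs2, which acts mainly on Gq and whose loss raises blood pressure in mice, marked muscle against pericytes. Its level was 273, 177 and 239 CPM in muscle-like cells. In pericyte-like cells it was 31.5, 0 and 3.84 CPM, from 7, 0 and 1 UMIs, and the 0 of PLV replicate 2 allows up to 24.5 CPM. The groups did not overlap. The log2 fold change of pericyte-like over muscle-like cells was -4.39 (SE 0.525, adjusted p = 3.43e-06, lower in 3 of 3 libraries). It was -4.32 (adjusted p = 6.60e-20) against Ano1 and Hmcn2 clusters and -3.79 (adjusted p = 3.81e-06) against Pln and Sorbs2 clusters. Near-empty droplets of the mixed library had 63.0 CPM of Rgs2, above its pericyte-like cells.

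Between the kinds of muscle Rgs2 did not pass the threshold with all 3 libraries. It was at 269, 245 and 258 CPM in Ano1 and Hmcn2 clusters and at 275, 130 and 86.3 CPM in Pln and Sorbs2 clusters. That difference was 0.56 on the log2 scale (SE 0.228, adjusted p = 0.0696). It passed without PLV replicate 1 (1.15, adjusted p = 5.62e-05), with at least 1000 UMIs per cell (0.66, adjusted p = 0.009149) and with no filter on low counts (0.52, adjusted p = 0.0459). It was 0.099 without the mixed library (adjusted p = 0.769), so its size rests on which libraries are kept. The P2rx1 and Col12a1 cluster had 283 CPM. Immediate early and heat shock genes, which respond to cell dissociation, moved with the contrast of pericytes and muscle: 0 of 25 were higher and 11 lower in pericyte-like cells (median log2 fold change -0.91, against -0.09 for all genes, of which 13.1% passed in either direction), and their summed level was 13571, 10751 and 16327 CPM in pericyte-like and 26119, 14987 and 25039 CPM in muscle-like cells. By kind of muscle, 4 of 23 early genes were higher and 9 lower against Ano1 and Hmcn2 clusters (median -0.23, 25.4% of all genes passed). Against Pln and Sorbs2 clusters 1 of 25 was higher and 17 lower (median -0.96, 27.6%). The part of these genes in the Rgs2 difference was not tested.

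Rgs16, an RGS protein induced by inflammatory stimuli, had its higher levels in cells of unlike type. Lymphatic endothelial-like cells had 330, 288 and 396 CPM and pericyte-like cells 248, 262 and 757 CPM. Blood endothelial-like cells had 54.4, 49.3 and 62.8 CPM. Muscle-like cells had 4.09, 7.66 and 53.9 CPM. The order of lymphatic endothelium and pericytes changed between the libraries, so it is not fixed beyond their spread, and both lay above blood endothelium in all 3. The log2 fold change of pericyte-like over muscle-like cells was 4.07 (SE 0.442, adjusted p = 1.01e-06), and that of blood over lymphatic endothelial-like cells was -2.64 (SE 0.396, adjusted p = 1.62e-05, lower in 3 of 3). Pericyte-like over blood endothelial-like cells gave 2.64 (SE 0.424, adjusted p = 5.00e-05). Muscle-like over blood endothelial-like cells gave -1.43 (SE 0.443, adjusted p = 0.0120), lost without PLV replicate 1 (-0.82, adjusted p = 0.192), without PLV replicate 2 (-1.26, adjusted p = 0.123) and without the library block (-1.05, adjusted p = 0.214).

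Between muscle kinds, Rgs16 was at 9.79, 18.6 and 73.7 CPM in Ano1 and Hmcn2 clusters and at 1.35, 0 and 24.6 CPM in Pln and Sorbs2 clusters. The log2 fold change was 1.96 (SE 0.464, adjusted p = 0.00231, higher in 3 of 3 libraries). It no longer passed with at least 1000 UMIs per cell (0.92, adjusted p = 0.206), at Leiden resolution 2 (1.12, adjusted p = 0.211) or without the library block (2.70, adjusted p = 0.0628). The PLV values rest on 7, 6, 2 and 0 UMIs.

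Rgs3, which occurs in short and long forms and also binds the beta and gamma subunits, was a gene of endothelium. Its level was 138, 129 and 99.0 CPM in lymphatic and 104, 62.1 and 73.0 CPM in blood endothelial-like cells. Lymphatic values were the higher in each library, but the log2 fold change of blood over lymphatic was -0.59 (SE 0.267, adjusted p = 0.134) and did not pass, while it was -0.56 with adjusted p = 0.0172 when only these classes were fitted. Muscle-like cells had 12.3, 26.8 and 25.0 CPM, under every endothelial value. Muscle-like over blood endothelial-like cells gave a log2 fold change of -1.85 (SE 0.304, adjusted p = 2.39e-05), and that of pericyte-like over blood endothelial-like cells was -1.82 (SE 0.450, adjusted p = 0.00389). Within muscle, Ano1 and Hmcn2 clusters had 26.6, 62.0 and 29.5 CPM against 5.39, 2.17 and 22.2 CPM in Pln and Sorbs2 clusters. That difference was 1.84 on the log2 scale (SE 0.482, adjusted p = 0.00519, DESeq2 adjusted p = 0.0635), from 19, 20 and 38 UMIs against 8, 1 and 9. In the mixed library the intervals of the kinds (20.9 to 40.5 and 10.1 to 42.1) overlapped. Both also overlapped that of near-empty droplets (19.0 CPM, interval 11.4 to 29.7).

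Blood endothelial-like cells had a high sum of Rgs5, at 1274, 532 and 576 CPM, above muscle in each library (log2 fold change of muscle-like over blood endothelial-like cells -1.23, SE 0.236, adjusted p = 0.000161). A minority of blood endothelial-like cells held the sum, with an Rgs5 UMI in 122 of 296, 22 of 59 and 44 of 174 cells (41.2%, 37.3% and 25.3%), where muscle-like cells had one in 38.4%, 40.9% and 40.8%. After thinning the shares were 33.0%, 21.1% and 22.1% against 26.2%, 18.6% and 18.6%. The level varied between clusters. In PLV replicate 1 the clusters had 1562 CPM (led by Cd36 and Gpihbp1, genes of capillaries), 1502 CPM (led by Sema3g and Gja5, genes of arterial endothelium) and 658 CPM (led by Selp, a gene of venules). The 13 pericyte markers summed to 1085, 963 and 342 CPM in the same clusters. Rgs5 UMIs per UMI of these markers were 1.44, 1.56 and 1.93, beside 1.55 in the pericyte-like cells of that library and 0.215 and 0.196 in its muscle clusters. Per UMI of 4 of the markers (Kcnj8, Abcc9, Higd1b and Vtn) the values were 4.50, 14.4 and 9.63, beside 6.42 in pericyte-like cells, 4.25 in Pln and Sorbs2 muscle and 0.517 in Ano1 and Hmcn2 muscle, so the order of the ratios depended on the markers counted.

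The other libraries were measured likewise. The cluster led by Sema7a and Flt1 had 697 CPM of Rgs5 and a ratio of 1.08 in PLV replicate 2, where pericyte-like cells had 1.20. In the mixed library the clusters led by Rbp7 and by Aqp1 had 963 and 221 CPM and ratios of 0.810 and 1.06, where pericyte-like cells had 1.08. Per UMI of the 4 markers, the PLV replicate 2 cluster had 3.70 against 5.79 in pericyte-like cells and 3.15 in Pln and Sorbs2 muscle, and the mixed clusters had 2.26 and 3.05 against 3.82 and 6.47. On this count endothelium was not set with pericytes apart from that kind of muscle. In 2 blood endothelial-like clusters, 1 of 12 cells in PLV replicate 2 led by Selp and Ackr1 and 1 of 33 cells in the mixed library led by Cytl1 and Vwf, 12 of 13 pericyte markers were at 0 and Rgs5 had 1 UMI (6.63 and 4.15 CPM). Lymphatic endothelial-like cells had 8.75, 1.07 and 1.21 CPM of Rgs5, from 20, 1 and 1 UMIs. Blood over lymphatic endothelial-like cells gave a log2 fold change of 7.46 (SE 0.357, adjusted p = 6.59e-13). The part of pericyte RNA in this difference was not tested.

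**Figure D3:**
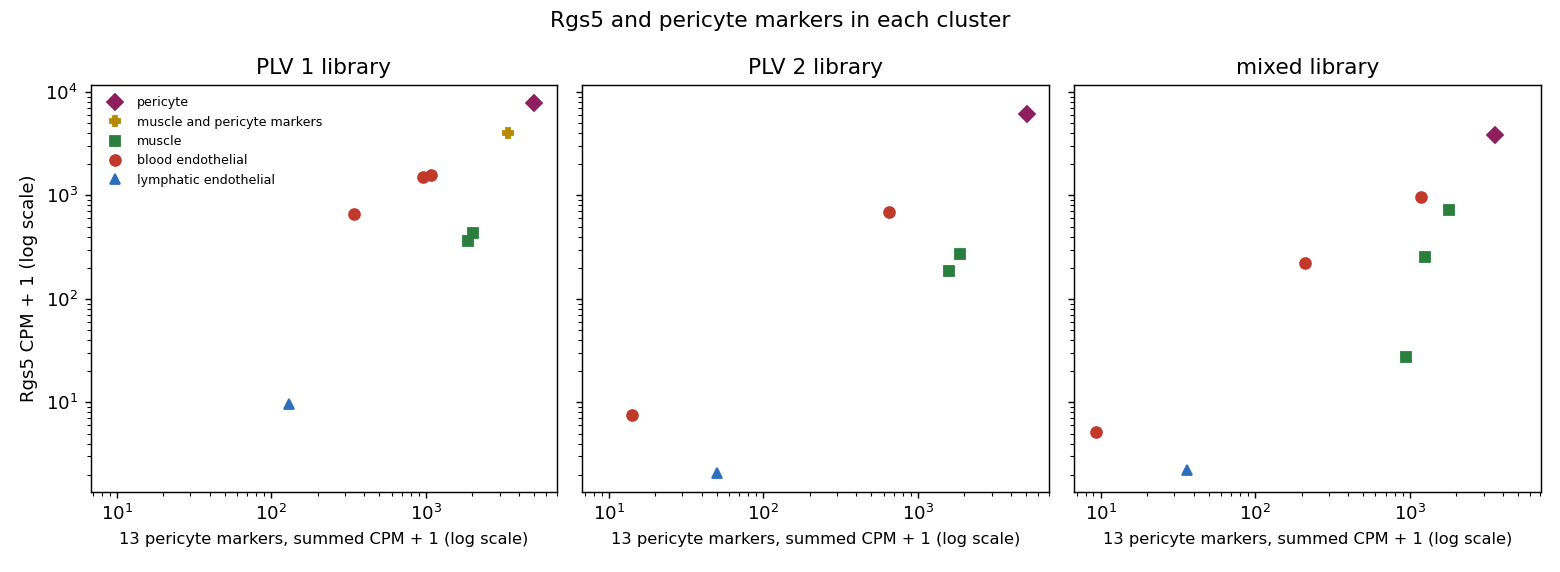
Rgs5 (CPM plus 1, log axis) against the summed level of 13 pericyte markers (CPM plus 1, log axis) in clusters of mural and endothelial cells, with 1 point per cluster and 1 panel per library. Blood endothelial clusters run from 4.15 to 1562 CPM of Rgs5 as the pericyte markers run from 8.29 to 1189 CPM, and muscle clusters have 26.6 to 717 CPM of Rgs5 at 949 to 2012 CPM of the markers. In the PLV panels no blood endothelial cluster reaches the marker levels of muscle.

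Rgs4 in blood endothelial-like cells was at 67.4, 23.9 and 45.1 CPM, and it had 0 UMIs in lymphatic endothelial-like cells of all 3 libraries, which allows up to 1.31, 3.22 and 3.62 CPM. Against that floor, set at 3 counts per library, blood endothelial-like cells were at least 51.3-fold, 7.42-fold and 12.45-fold higher. Pericyte-like cells were at least 425.5-fold, 116.8-fold and 53.0-fold higher than lymphatic endothelium. In the Rbp7 cluster of the mixed library Rgs4 was at 81.3 CPM, and it had 0 UMIs in the cluster led by Cytl1 and Vwf, where pericyte markers were also near 0. Rgs10 was likewise higher in blood than in lymphatic endothelial-like cells (16.2, 7.96 and 14.6 against 2.19, 1.07 and 2.41 CPM, log2 fold change 2.62, SE 0.575, adjusted p = 0.00123). The near-empty droplets of the mixed library had 41.0 CPM of Rgs10, above both endothelial classes there. Rgs2 was low in both, at 18.8, 25.5 and 21.6 CPM in blood and 21.4, 27.9 and 6.03 CPM in lymphatic endothelial-like cells (adjusted p = 0.764).

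Leukocytes carried Rgs1, Rgs2 and Rgs10. Rgs1, known for restraining chemokine receptors in lymphocytes, was at 120, 212 and 82.3 CPM in immune-like cells. It had 0 UMIs in blood endothelial-like, lymphatic endothelial-like and pericyte-like cells of every library, so that immune-like cells were at least 61.8-fold, 44.3-fold and 43.2-fold above blood endothelium. Rgs2 was at 413, 488 and 252 CPM (log2 fold change of immune-like over blood endothelial-like cells 4.23, SE 0.368, adjusted p = 3.41e-09). Rgs10, which favours Gi and is known from macrophages and platelets, was at 172, 147 and 129 CPM (3.70, SE 0.366, adjusted p = 2.51e-08). Both were higher in 3 of 3 libraries, with no overlap. Rgs3, Rgs4, Rgs5 and Rgs16 were lower in immune-like cells, at 21.6 CPM or below, with adjusted p from 1.36e-11 to 0.000423.

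Immune cells were not alike among themselves. In PLV replicate 1, mast-like cells (23 cells, led by Mcpt4 and Cma1) had 1140 CPM of Rgs1 (interval 822 to 1542) and 1575 CPM of Rgs2 (1196 to 2036). T or NK-like cells (55) had 143 CPM of Rgs1 (89.7 to 217) and 579 CPM of Rgs2. Macrophage-like cells (86) had 30.4 CPM of Rgs1 (14.6 to 55.9), 271 CPM of Rgs2 and 240 CPM of Rgs10 (190 to 299). B-like cells (48) had 0 UMIs of Rgs1 and of Rgs10 and 187 CPM of Rgs2. The mast cell and lymphocyte values come from 1 library, with no replicate check, and the intervals cover counting error only. In PLV replicate 2 mast and macrophage markers lay in 1 cluster, with 212 CPM of Rgs1, and macrophage-like cells of the mixed library had 78.6 CPM. The differing makeup therefore stands beside the immune-like values above. A PLV replicate 1 cluster of 9 cells led by the platelet genes Nrgn, Pf4 and Ppbp, left unnamed here, had Rgs10 at 3257 CPM (2347 to 4402) in all 9 cells.

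**Figure D4:**
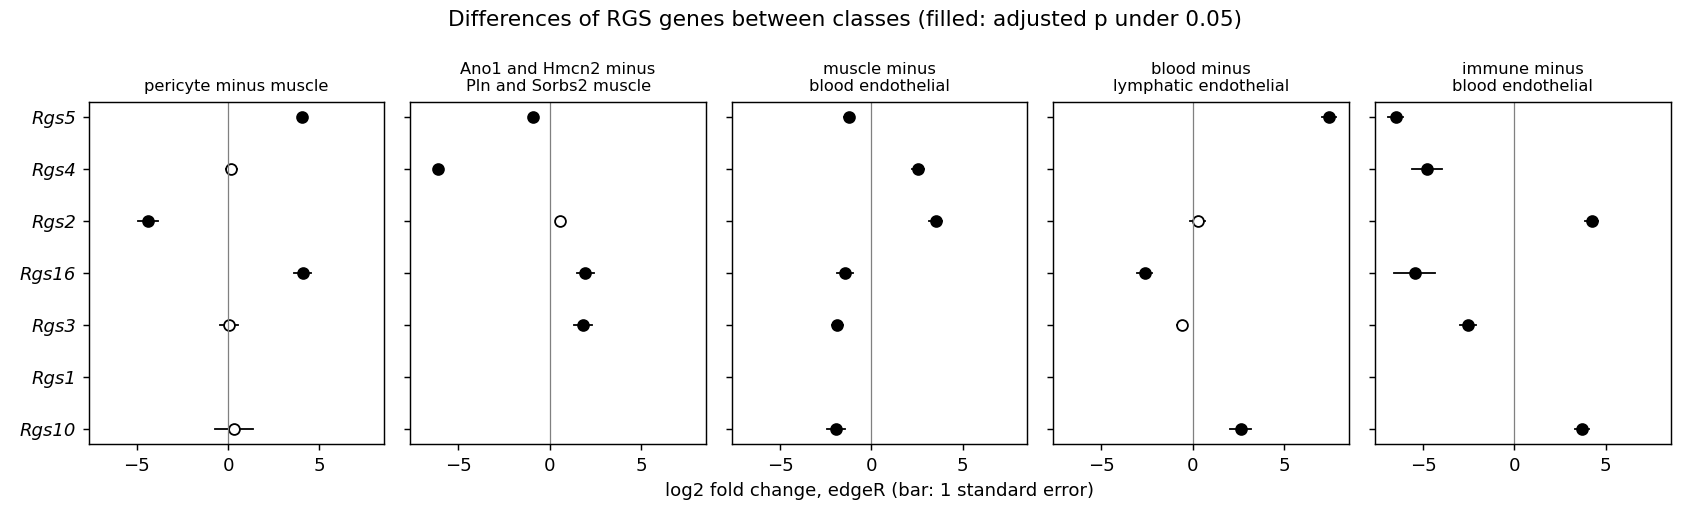
edgeR log2 fold changes of the RGS genes in 5 comparisons, with bars of 1 standard error and filled points for adjusted p under 0.05; genes with 0 UMIs in 1 of the classes in every library have no point. Rgs4 stands at -6.09 between the muscle kinds and at 0.17 between pericyte-like and muscle-like cells, and Rgs2 is at -4.39 in the latter.

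Counts over the 7 genes were read against all genes tested. Between pericyte-like and muscle-like cells 3 of 7 passed, where 13.1% of all genes did. Between muscle kinds 4 of the 5 that were tested passed, against 31.3%. All 7 passed when muscle-like cells were set against blood endothelial-like cells (40.4% of all genes), and all 7 for immune-like against blood endothelial-like cells (36.8%). The counts were 4 of 7 for pericyte-like against blood endothelial-like cells (22.9%) and 4 of 7 for blood against lymphatic endothelial-like cells (21.4%). For muscle-like against fibroblast-like cells 5 of 7 passed (38.5%): Rgs2, Rgs4, Rgs5 and Rgs16 were higher in muscle and Rgs10 lower. Rgs1 was 2.68 there (adjusted p = 0.0622), 3.93 without PLV replicate 1 (adjusted p = 0.0185) and 0.40 without the mixed library (adjusted p = 0.866). The Rgs16 call there was lost without the mixed library (0.24, adjusted p = 0.8245) and with only these classes fitted (2.32, adjusted p = 0.0684). The Rgs1 call of muscle against blood endothelium was lost without the mixed library (3.44, adjusted p = 0.145) and with DESeq2 (4.97, adjusted p = 0.143).

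Receptors, G proteins and effectors of the pathway were described from lists. Among receptors coupled to Gi or Gq, 29 of 45 were tested between pericyte-like and muscle-like cells, with 5 higher and 4 lower in pericytes, where 13.1% of all genes passed in either direction. The angiotensin receptor Agtr1a was at 122, 278 and 131 CPM in pericyte-like and at 0.909, 0 and 0.397 CPM in muscle-like cells (log2 fold change 7.65, SE 0.612). Adra2a, a Gi coupled adrenergic receptor, was at 423, 123 and 211 against 25.0, 30.6 and 32.5 CPM (2.84, SE 0.343). Ednrb, an endothelin receptor, was also higher in pericytes (4.83, SE 0.445), at 135, 155 and 30.7 CPM, and the sphingosine 1-phosphate receptor S1pr3 lower (-2.72, SE 0.544). S1pr3 was -3.68 against Pln and Sorbs2 clusters and was not tested against Ano1 and Hmcn2 clusters. Ednrb was at 160, 161 and 147 CPM in blood endothelial-like cells. Blood endothelial markers summed to 5018, 4080 and 4402 CPM in pericyte-like cells, 490, 264 and 412 CPM in muscle-like cells and 30540, 31042 and 32565 CPM in blood endothelial-like cells. Their part in the differences between pericytes and muscle was not tested. The median over the receptors was 0.00, beside -0.09 for all genes, with 11 of them at 0 on 1 side.

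Effectors of Gq were listed together with genes of the cyclic GMP pathway, which relaxes muscle. Of 16 genes of this list tested, 0 were higher and 5 lower in pericyte-like cells, where 13.1% of all genes passed in either direction: the kinase Prkcd (-3.10, SE 0.367), the cyclic GMP kinase Prkg1 (-0.85, SE 0.264), the calcium release channel Itpr1 (-2.19, SE 0.371), the phospholipase Plcb4 (-1.61, SE 0.316) and the exchange factor Kalrn (-1.19, SE 0.369). Their median was -0.30 as fitted and 0.03 with the 1 gene at 0 on 1 side set to its bound. Of 11 alpha subunits, Gnao1 (-1.87, SE 0.402) and Gna12 (-0.91, SE 0.290) were lower and 0 higher (median -0.27). Among 7 other RGS related genes tested, Rgs7bp, which anchors a different group of RGS proteins at the membrane, was lower in pericytes (-3.26, SE 0.384) and the rest did not pass. Some of these values depended on the kind of muscle. Prkcd, Itpr1, Plcb4 and Gnao1 were lower in pericyte-like cells against either kind. Rgs7bp was -3.92 against Pln and Sorbs2 clusters (adjusted p = 2.83e-07) and -0.72 against Ano1 and Hmcn2 clusters (adjusted p = 0.202). Kalrn was 0.84 (adjusted p = 0.0633) and -1.85 (adjusted p = 8.14e-10) in the same order, Prkg1 -0.99 (adjusted p = 0.00449) and -0.36 (adjusted p = 0.321), and Gna12 -1.24 (adjusted p = 0.00417) and 0.19 (adjusted p = 0.745). Other genes of these lists were higher in pericyte-like cells against 1 kind only, by edgeR in that order. Gnai1 was 2.07 (adjusted p = 0.000141) and -0.57 (adjusted p = 0.0758), and Rgs6 -0.17 (adjusted p = 0.711) and 0.91 (adjusted p = 0.0330). Gucy1a1 was -0.04 (adjusted p = 0.878) and 0.71 (adjusted p = 7.08e-05), and Gucy1b1 0.39 (adjusted p = 0.297) and 0.85 (adjusted p = 0.00028).

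The same lists were set against the split of muscle kinds. Rgs7bp, like Rgs4, was higher in Pln and Sorbs2 clusters, at 410, 419 and 365 CPM against 44.8, 62.0 and 36.5 CPM (-3.26, SE 0.188). Rgs6 was lower in Ano1 and Hmcn2 clusters too (-1.15, SE 0.236), while Rgs12 (3.10, SE 0.595) and Axin2 (3.46, SE 0.503), which carries an RGS domain and acts in Wnt signalling, were higher there. Between the kinds 31.3% of all genes passed in either direction. Of 11 alpha subunits 4 were higher in Ano1 and Hmcn2 clusters, among them Gnai1 (2.63, SE 0.219) and Gnaq (0.98, SE 0.197), and 2 lower, Gna12 (-1.45, SE 0.223) and Gna11 (-0.81, SE 0.174). Of 12 genes of the effector and cyclic GMP list 3 were higher, led by Kalrn (2.65, SE 0.194), and 6 lower. Of 8 receptors tested, 3 were higher and 3 lower in Ano1 and Hmcn2 clusters. The thrombin receptor F2r (6.97, SE 0.572), Adra2a (3.79, SE 0.373) and Adra2b (2.69, SE 0.342) were higher. The vasopressin receptor Avpr1a (-6.00, SE 0.669) and the prostaglandin receptor Ptger3 (-4.86, SE 0.559) were lower, and so was S1pr3, at 458, 434 and 298 CPM in Pln and Sorbs2 clusters against 0, 3.10 and 0 CPM, from 0, 1 and 0 UMIs. The medians were 0.22 for alpha subunits, -0.49 for the effector and cyclic GMP list and 0.07 for receptors, beside -0.00 for all genes. Immediate early and heat shock genes differed between the kinds as well, with 1 higher and 13 lower of 25 in Ano1 and Hmcn2 clusters, and their part in these results was not tested.

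The mixed library was compared with PLV within each class, as the labels allow, although vessel, digestion, mice and the Cell Ranger version differ together and cannot be told apart. The single mixed sum was assumed to vary like the PLV sums. In muscle-like cells 3 of 7 genes passed, where 16.5% of all genes did. Rgs4 was lower in the mixed library (91.2 against 453 and 364 CPM; log2 fold change -1.95, SE 0.281, adjusted p = 4.12e-09). Rgs16 was higher (53.9 against 4.09 and 7.66 CPM; 3.61, SE 0.355, adjusted p = 7.12e-18). Rgs1 was higher (12.7 against 0.455 and 3.83 CPM, from 32, 1 and 3 UMIs; 3.35, SE 0.774, adjusted p = 0.000456). As plain log2 ratios of CPM, Rgs1 was 1.73 without PLV replicate 1 and 4.80 without PLV replicate 2, so its size rests on which is kept. Of the 32 mixed UMIs of Rgs1, 17 were in the P2rx1 and Col12a1 cluster, in 14 of its 74 cells. No separate cluster of this kind formed in PLV. P2rx1 was also among the leading genes of the Pln and Sorbs2 cluster of PLV replicate 1, so such cells may lie within the PLV clusters. In Ano1 and Hmcn2 clusters Rgs1 was at 1.40, 9.31 and 6.21 CPM from 1, 3 and 8 UMIs, with PLV replicate 2 the highest, and in Pln and Sorbs2 clusters at 0, 0 and 17.3 CPM from 0, 0 and 7 UMIs. The 8 and 7 mixed UMIs lay in 2 of 188 and 2 of 57 cells, and the 3 of PLV replicate 2 in 1 cell. The mixed Ano1 and Hmcn2 cluster also had 4 mast markers at least 2 times above the other cells. The part of leukocyte RNA in the Rgs1 difference was not tested. Rgs2 and Rgs5 did not pass.

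The kinds of muscle have unequal shares in the libraries, with Pln and Sorbs2 clusters at 285 of 422, 53 of 110 and 57 of 319 muscle-like cells. Within Pln and Sorbs2 clusters Rgs4 did not pass (-0.81, SE 0.290, adjusted p = 0.0830), and within Ano1 and Hmcn2 clusters it did not either (-1.30, SE 1.207, adjusted p = 0.601). Rgs16 was higher within Ano1 and Hmcn2 clusters (2.81, SE 0.400, adjusted p = 1.39e-05), but 2.80 with adjusted p = 0.06045 under DESeq2-type size factors and 1.27 with adjusted p = 0.359 at Leiden resolution 2, where 34 of the 188 mixed cells were in an unnamed cluster. In Pln and Sorbs2 clusters Rgs5 was higher (1.17, SE 0.262, adjusted p = 0.000835) and Rgs2 lower (-1.13, SE 0.310, adjusted p = 0.0111). The Rgs2 call was lost with DESeq2 (-1.07, adjusted p = 0.614) and with doublets kept (-1.14, adjusted p = 0.0615), and its plain log2 ratio of CPM was -1.23 with both PLV replicates and -0.59 without PLV replicate 1. The Rgs5 call was lost with DESeq2 (1.19, adjusted p = 0.205). Rgs5 there was 0.44 (adjusted p = 0.389) with at least 1000 UMIs per cell, and its UMIs per pericyte marker UMI were 0.400 in the mixed library and 0.215 and 0.147 in PLV. Of all genes 3.09% passed in Ano1 and Hmcn2 clusters and 4.73% in Pln and Sorbs2 clusters.

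In pericyte-like cells Rgs16 was the 1 of 3 genes tested that passed (757 against 248 and 262 CPM; log2 fold change 1.82, SE 0.306, adjusted p = 1.33e-06), where 3.39% of all genes did. DESeq2 gave no adjusted p for it, and at Leiden resolution 0.5 it was 0.74 (adjusted p = 0.184). At that resolution the pericyte class of the mixed library held 40 of its 41 pericyte-like cells together with all 57 cells of its Pln and Sorbs2 cluster and 1 fibroblast-like cell, so that value is not one of pericytes alone. Rgs4 gave -1.07 (adjusted p = 0.0637) and Rgs5 -0.62 (adjusted p = 0.223). In blood endothelial-like cells 0 of 6 passed (1.87% of all genes) and in lymphatic endothelial-like cells 0 of 3 (0.756%) by edgeR and by DESeq2, which left 5 and 2 of them without an adjusted p. At an unadjusted p under 0.05, edgeR counted 0 and 2, which cannot be read against these shares of all genes at adjusted p. Rgs16 there was 0.41 (SE 0.274) and 0.57 (SE 0.272). In fibroblast-like cells Rgs10 was the 1 of 3 that passed (27.8 against 9.25 and 15.5 CPM; 1.86, SE 0.488, adjusted p = 0.0172; 10.6% of all genes), a level under that of near-empty droplets.

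Whether the change from PLV to the mixed library was unlike between classes was tested by interaction terms. Against blood endothelium, muscle changed differently for 2 of 7 genes, Rgs4 and Rgs16, where 2.39% of all genes did. Against lymphatic endothelium it did so for 1 of 6, Rgs16 (1.56% of all genes), and against pericytes for 0 of 5 (0.411%), of which 3 had an unadjusted edgeR p under 0.05. DESeq2 called none of these. The shares of all genes are for adjusted p, so the 3 of 5 at unadjusted p cannot be read against them.

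Free RNA was measured where it could be. The near-empty droplets of the mixed library had 38.0 CPM of Rgs16 (interval 26.9 to 52.1), and its muscle-like cells 53.9 (45.3 to 63.8), so the intervals overlap. By kind of muscle, Ano1 and Hmcn2 clusters had 73.7 CPM (59.6 to 90.1), above the droplets. The P2rx1 and Col12a1 cluster had 37.5 CPM (25.5 to 53.2) and Pln and Sorbs2 clusters 24.6 CPM (11.8 to 45.3), which did not differ from the droplets beyond counting error. In the same library fibroblast-like cells had 2.28 CPM of Rgs16 and immune-like cells 0, which allows up to 15.4 CPM. Immediate early and heat shock genes were higher in the mixed library for 8 of 25 and lower for 3 in muscle-like cells (16.5% of all genes passed in either direction). The counts were 9 higher and 0 lower of 24 in pericyte-like cells (3.39%), 2 and 0 of 25 for blood endothelium (1.87%), 7 and 0 of 25 for lymphatic endothelium (0.756%) and 5 and 3 of 25 in fibroblast-like cells (10.6%), with Hspa1a at 2.68 in muscle-like and 3.09 in lymphatic endothelial-like cells on the log2 scale. Within kinds of muscle, 10 were higher and 2 lower of 25 in Ano1 and Hmcn2 clusters (3.09% of all genes passed). In Pln and Sorbs2 clusters 9 were higher and 1 lower of 25 (4.73%). The part of these genes in the Rgs16 differences, and in those of Rgs2 and Rgs5 within kinds, was not tested.

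**Figure D5:**
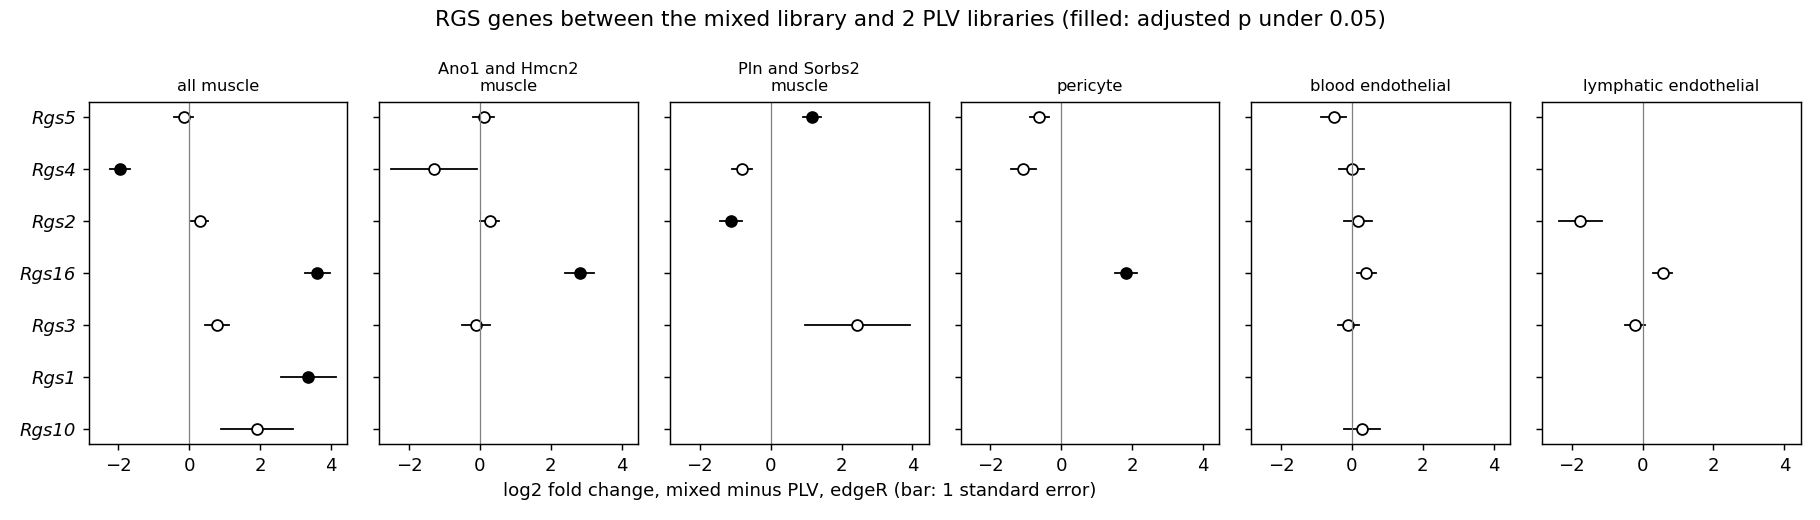
edgeR log2 fold changes of the RGS genes between the mixed library and the PLV libraries in 6 sets of cells, with bars of 1 standard error and filled points for adjusted p under 0.05. Rgs16 stands at 3.61 in all muscle, 2.81 in Ano1 and Hmcn2 muscle and 1.82 in pericyte-like cells, and at 0.41 and 0.57 in the endothelial classes, where it did not pass.

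The genes whose levels most resembled each RGS gene were listed over 21 sums of 7 classes and 3 libraries, by Pearson's r of log2 CPM with 10 added. The sums share libraries, so r is a description. Rgs5 was most like Higd1b (r = 0.948) and Cox4i2 (0.932), both pericyte markers of the naming list, and Ano1 (0.928). Rgs4 was most like the olfactory receptor Olfr558 (0.986), Notch3 (0.972) and Cox4i2 (0.971). Notch3 and Cox4i2 are in that naming list too, so the classes were named with them. Rgs16 was most like Procr (0.914), the protein C receptor of endothelium, Grk5 (0.911), a kinase that turns off G protein coupled receptors, and Bcr (0.899). Rgs3 was most like Trim37 (0.898), Tead4 (0.894) and Egfl7 (0.886), a gene of the blood endothelial naming list. Rgs2 was most like Nr4a3 (0.881), an immediate early gene, Relt (0.874) and Mbnl1 (0.869). Rgs1 was most like Wdfy4 (0.978), Il1rl1 (0.978) and Itgb2 (0.977), and Rgs10 most like Ciao2a (0.929), N4bp2l1 (0.922) and H2-DMa (0.916). With 1 CPM added in place of 10, some of these left the first 3: Nr4a3 for Rgs2, Procr for Rgs16, Ano1 for Rgs5, Notch3 and Cox4i2 for Rgs4, Tead4 for Rgs3, Wdfy4 and Itgb2 for Rgs1 and H2-DMa for Rgs10.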

How the data were processed

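Single-cell RNA was sequenced from 2 PLV libraries and 1 mixed library of adult mice. The authors deposited UMI counts per gene and cell barcode, not normalized. Per the file headers they were made with Cell Ranger 6.1.2 (PLV) and 4 (mixed), and the submitters' processing notes name Cell Ranger, Seurat and GRCm38. The PLV tables held 2649 and 730 barcodes and the mixed library 896360. Kept cells had 500 or more UMIs from 300 or more genes, with no more than 15% of UMIs from mitochondrial and 20% from haemoglobin genes, after removal of 10, 3 and 3 predicted doublets (scrublet). Each library was clustered on its own (scanpy 1.11.5, 2000 variable genes, 50 components, 15 neighbours, leidenalg 0.10.2 at resolution 1), without the 7 RGS genes, the pathway lists and immediate early genes. A cluster was named from at least 3 markers at least 2 times above the other cells, with 20 CPM added. Clusters with markers of 2 classes were divided once more, a step added after the data were seen, since pericytes and keratinocytes had merged in PLV replicate 1.

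UMIs were summed per library and class and tested with edgeR 4.0.16 (R 4.3.3; quasi-likelihood test, TMM, filterByExpr, library as a block for classes, Benjamini-Hochberg adjustment over all genes, threshold 0.05), checked first on simulated counts. The standard errors (SE) beside edgeR values were derived from the F statistic of this test. Each is the size of the log2 fold change divided by the square root of F. The mixed library is 1 sample and was assumed to vary like PLV. The PLV labels describe separate sets of mice. Shares were compared after thinning cells to 1500 UMIs. Intervals are 95% exact Poisson or binomial, and intervals and floors of 3 counts cover counting error only. DESeq2 1.42.0, other size factors, filters, Leiden resolutions, left-out libraries and a fit without the block were alternatives. The members, lists and tests were chosen with earlier results of these data known. The genes named are all 7 members, at most 5 called genes per list and direction by size of change, and the 3 genes most like each member. Comparisons within each kind of muscle, and counting the PLV replicate 1 cluster with both marker sets as pericyte-like, were added after the data were seen. The hashtags were not used to assign vessels.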

Additional observations from a re-analysis of the deposited data

Results flagged for a closer look

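The change from PLV to the mixed library differed between cell classes for 2 of the 7 RGS genes, by an edgeR interaction term. For Rgs4, muscle-like minus blood endothelial-like cells gave -1.97 on the log2 scale (SE 0.331, adjusted p = 1.10e-06): muscle-like cells had 453, 364 and 91.2 CPM and blood endothelial-like cells 67.4, 23.9 and 45.1 CPM. For Rgs16 the same difference was 3.22 (SE 0.451, adjusted p = 7.27e-10), with 4.09, 7.66 and 53.9 CPM in muscle-like and 54.4, 49.3 and 62.8 CPM in blood endothelial-like cells. In this pair of classes 2 of 7 members passed, where 2.39% of all genes did.

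Against lymphatic endothelial-like cells (330, 288 and 396 CPM), the Rgs16 difference was 3.11 (SE 0.442, adjusted p = 2.03e-06), the 1 of 6 members that passed, where 1.56% of all genes did. DESeq2 gave -2.18, 3.11 and 2.95 and did not call these differences (adjusted p = 1, 1 and 0.242). Against pericyte-like cells Rgs16 gave 1.70 (SE 0.494, adjusted p = 0.0830). It was 0.57 at Leiden resolution 2 (adjusted p = 0.936) and 0.59 with at least 1000 UMIs per cell (adjusted p = 0.963). At resolution 0.5 it was 2.83 (adjusted p = 5.19e-07), but there the mixed pericyte class took in the 57 cells of the Pln and Sorbs2 muscle cluster. Each difference rests on 1 mixed library. The kinds of muscle have unequal shares in the libraries, and their part in these differences was not tested.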

How the results depend on the processing

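Of 665 alternative values of 53 calls, 639 kept their direction and their side of the threshold, 26 no longer passed and 0 changed direction. Of 208 alternative counts of called members, 195 stayed within 1.5 times the reported count. Where a value changed, the cause was not tested.

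Without the library block 2 members passed between the muscle kinds (4 with it). With at least 1000 UMIs per cell, 3 passed for mixed against PLV in pericyte-like cells (1 as reported) and 1 in Pln and Sorbs2 clusters (2 as reported). In the latter, 0 passed with DESeq2, 4 with no filter on low counts and 1 with doublets kept. In Ano1 and Hmcn2 clusters 0 passed with DESeq2-type size factors and 0 at Leiden resolution 2 (1 as reported). For the differences between classes, DESeq2 gave 0 against blood endothelium (2 as reported) and 0 against lymphatic endothelium (1 as reported), where keeping doublets gave 2 and Leiden resolution 0.5 gave 2. Against pericyte-like cells, resolution 0.5 gave 3 (0 as reported). At resolution 0.5 the mixed pericyte class had 98 cells, of which 57 were Pln and Sorbs2 muscle, 40 pericyte-like and 1 fibroblast-like as reported, so every value of that class there compares other cells. With at least 1000 UMIs it had 53 cells, of which 12 were Ano1 and Hmcn2 muscle as reported. DESeq2 gave no adjusted p for Rgs1 in muscle-like cells, Rgs16 in pericyte-like cells and in Ano1 and Hmcn2 clusters, and Rgs10 in fibroblast-like cells (mixed against PLV), so these DESeq2 counts are not given.

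Results of members without a call passed in 16 alternative values. These were Rgs10 in pericyte-like against blood endothelial-like cells (-2.61 at resolution 0.5), Rgs3 in blood against lymphatic endothelium (-0.56 with only these classes fitted), Rgs1 in muscle against fibroblasts (2.73 unfiltered and 3.93 without PLV replicate 1) and Rgs2 between muscle kinds (0.52 to 1.15 in 3 settings, but 0.104 at resolution 0.5 and 0.099 without the mixed library, without passing). For mixed against PLV they were Rgs5 in muscle-like cells (-0.69 at resolution 0.5) and, in pericyte-like cells, Rgs4 (-1.25 with 1000 UMIs) and Rgs5 (-0.94 with 1000 UMIs and -1.45 at resolution 0.5). For the differences between classes they were Rgs4, Rgs5 and Rgs16 against pericyte-like cells at resolution 0.5 (-2.576, 0.74 and 2.83) and Rgs2 against lymphatic endothelium (2.29 with doublets kept and 2.21 at resolution 0.5).

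Members without a call changed direction in 23 alternative values. For pericyte-like against muscle-like cells these were Rgs3 (-0.055 unfiltered and -0.093 to 0.021 without a PLV replicate), Rgs10 (-0.562 at resolution 0.5 and -0.075 to 0.706 without a PLV replicate) and Rgs4 (-0.051 without the mixed library). Rgs2 was 1.081 with 1000 UMIs and 0.827 at resolution 0.5 in pericyte-like against blood endothelial-like cells, and -0.145 without the mixed library in blood against lymphatic endothelial-like cells. For mixed against PLV in blood endothelial-like cells, Rgs4 was 0.008 with other size factors, 0.047 with 1000 UMIs, 0 under a 10% limit on mitochondrial reads, and 0.001 and 0.085 at resolutions 0.5 and 2, and Rgs10 was -0.539 at resolution 2. Rgs5 in Ano1 and Hmcn2 clusters was -0.018 with 1000 UMIs. For the differences between classes, against pericyte-like cells Rgs2 was -1.604 with 1000 UMIs and -1.027 at resolution 0.5. Against blood endothelial-like cells Rgs5 was -0.201 with 1000 UMIs and -0.211 at resolution 0.5, Rgs1 was -0.997 at resolution 0.5, and Rgs2 was -0.024 at resolution 0.5 and -0.091 at resolution 2. Against lymphatic endothelial-like cells Rgs1 was -3.97 with 1000 UMIs.

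As plain log2 ratios of mixed over PLV CPM, leaving out either PLV replicate gave 2.82 to 3.72 for Rgs16 and -2.31 to -2.00 for Rgs4 in muscle-like cells, and 1.53 to 1.61 for Rgs16 in pericyte-like cells. Without thinning, 79 of 140 shares of cells with a UMI fell outside the interval of the thinned share, and with thinning to 1000 UMIs 35 of 140 did. Low levels limit Rgs1 and Rgs10 outside immune-like cells. No paired analysis of PLV and mixed was possible, because the mixed library is 1 sample from its own pool of mice.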

Other observations

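Schwann-like cells also had Rgs3, at 63.4, 19.2 and 32.9 CPM, from 30, 3 and 4 UMIs, under blood and lymphatic endothelial-like cells of the same library in each case. In the P2rx1 and Col12a1 muscle cluster of the mixed library, 9 of 74 cells had both Rgs4 and Rgs5, 31 had Rgs4 alone and 4 had Rgs5 alone. That cluster had 20.6 CPM of Rgs1, a level seen in 1 library.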
